A study of Mus musculus with 12 samples.

Results

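This account follows 10 genes of fatty acid synthesis in mouse adipose tissue, taken by name, of 18193 genes with a probe set in the series. They are the enzymes and carriers Slc25a1, Acly, Me1, Acaca, Acacb and Fasn, the lipogenic proteins Thrsp and Pnpla3, and the transcription factors Srebf1 and Mlxipl. The genes have 20 of the 45098 probe sets. Where a gene has several, its brightest one on average stands for it, and all 10 passed the filter on dim genes that left 13312 genes for testing.

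RNA was measured on 12 single-colour Affymetrix arrays, 4 in each of 3 groups of C57Bl/6 mice. One group ate a high-fat diet (HFD) with 46% of calories from fat for 14 days and another ate it for 5 days, in both cases from 6 weeks of age. The chow group stayed on standard chow with 13% of calories from fat, the diet that all mice had eaten until then. The comparisons ask how adipose gene expression differs early and later on the diet that the series title links to insulin resistance. The labels give neither the fat depot, the sex, the feeding state, nor how old the chow mice were. They do not say that the arrays of a group came from separate mice, so p-values measure the spread between these samples, which may be technical.

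Fatty acids are built in the cytosol from acetyl groups. Slc25a1 carries citrate out of mitochondria, Acly splits it into acetyl-CoA, and Me1 makes NADPH for the reductive steps. Acetyl-CoA carboxylase, encoded by Acaca and Acacb, makes malonyl-CoA, and fatty acid synthase (Fasn) turns it into palmitate. SREBP-1 (Srebf1), which answers to insulin, and ChREBP (Mlxipl), which answers to glucose, switch on these genes, and dietary fat is known to restrain the pathway in liver.

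Levels are deposited log2 signals, on which a difference of 1 is a doubling. The adipocyte marker Adipoq stood between 14.90 and 15.05 on every array. Ucp1, the defining gene of brown fat, stood between 6.91 and 7.35, under the filter of 7.64. Of the 5 thermogenic adipocyte markers, Elovl3 and Otop1 were under the filter too. The other 2, Cidea and Cox8b, were above it on every array, so Ucp1 does not speak for the whole list. RNA of other tissues varied between arrays of 1 group. The mean of 5 measured epididymis markers was 13.11 on 14-day array 4, from 11.24 to 11.90 on 5-day arrays 1 to 3, and from 7.11 to 8.37 on all other arrays. Spink8, Adam7 and Defb42 carried it, at 12.53 to 14.96 on 14-day array 4 and 5-day arrays 1 to 3. Lcn5 was 14.54 on 14-day array 4 but 8.44, 9.13 and 11.05 on 5-day arrays 1 to 3. Gpx5 did not follow, at 7.82 to 8.52 on every array. The mean of 9 liver markers ran from 8.79 to 12.65 at 14 days, from 9.05 to 13.14 at 5 days and from 7.93 to 11.88 in chow; liver also makes fatty acids. Skeletal muscle markers (6 measured) averaged 13.16 on chow array 3, 12.8 on 5-day array 2 and from 7.69 to 9.40 on all other arrays. The mean of 7 adipocyte markers was 13.71 on 14-day array 4 and lay between 14.04 and 14.24 on the other arrays. In a bulk sample, fewer adipocytes and less RNA per adipocyte cannot be told apart.

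None of the 10 genes passed the test in any comparison. limma called 0 of the 10 at an adjusted p under 0.05 at 14 days against chow, at 5 days against chow and at 14 against 5 days, where it called 0% of all 13312 genes. At an unadjusted p under 0.05 stood 1 member at 14 days against chow (7.97% of all genes), 2 at 5 days against chow (10.1%) and 1 at 14 against 5 days (2.55%). The arrays of 2 groups were fully apart for 0 of the 10 genes in each comparison, against 4.63%, 11.3% and 0.924% of all genes in the same order. At 14 days against chow 10 of the 10 members had a lower mean, with a median difference of −0.20, and 44.8% of all genes did, with a median of 0.016. At 5 days against chow 8 of 10 were lower, with a median of −0.087, beside 50.4% of all genes and a median of −0.0015. At 14 against 5 days 6 of 10 were lower, with a median of −0.093, beside 44.0% of all genes and a median of 0.012. Single arrays moved these counts. Without 14-day array 4, 6 of 10 were lower at 14 days against chow (median −0.080, with 43.4% of all genes lower) and 4 of 10 at 14 against 5 days (median 0.045, with 39.6%). Without chow array 1, 4 of 10 were lower at 5 days against chow (median 0.028, with 48.9%), and without 5-day array 3, 5 of 10 were (median −0.055, with 49.1%). With arrays centred on their median, 6 of 10 were lower at 5 days against chow. When the mean of the epididymis markers was entered in the fit (the epididymis covariate), 8 of 10 were lower at 14 days and 5 of 10 at 5 days against chow. These markers were high on 5-day arrays 1 to 3 and on no chow array, so the covariate is partly confounded with the 5-day group. Within each HFD group array 4 stood apart from the other arrays in these markers, so fits with the covariate lean on those arrays. When the liver and skeletal muscle marker means were entered too (the 3 tissue covariates), 6 of 10 were lower at 14 days and 5 of 10 at 5 days. Both comparisons with chow use the same chow arrays. One alternative ended the absence of calls: weights estimated per array, which ran from 0.106 on 14-day array 4 and 0.255 on 5-day array 4 to 3.54 on 14-day array 1. With them limma called 1 of the 10 at 14 days against chow (22.4% of all genes), 3 at 5 days against chow (15.1%) and 2 at 14 against 5 days (16.6%). These were Mlxipl at 14 days (−0.31, adjusted p = 0.035), Acaca (−0.53, 0.022), Acacb (−0.61, 0.018) and Mlxipl (−0.46, 0.0083) at 5 days, and Srebf1 (0.31, 0.038) and Pnpla3 (−0.90, 0.028) at 14 against 5 days. Differences below are given with the standard error (SE) of limma's fit, and the adjusted p is its Benjamini-Hochberg value over all 13312 genes.

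**Figure D1:**
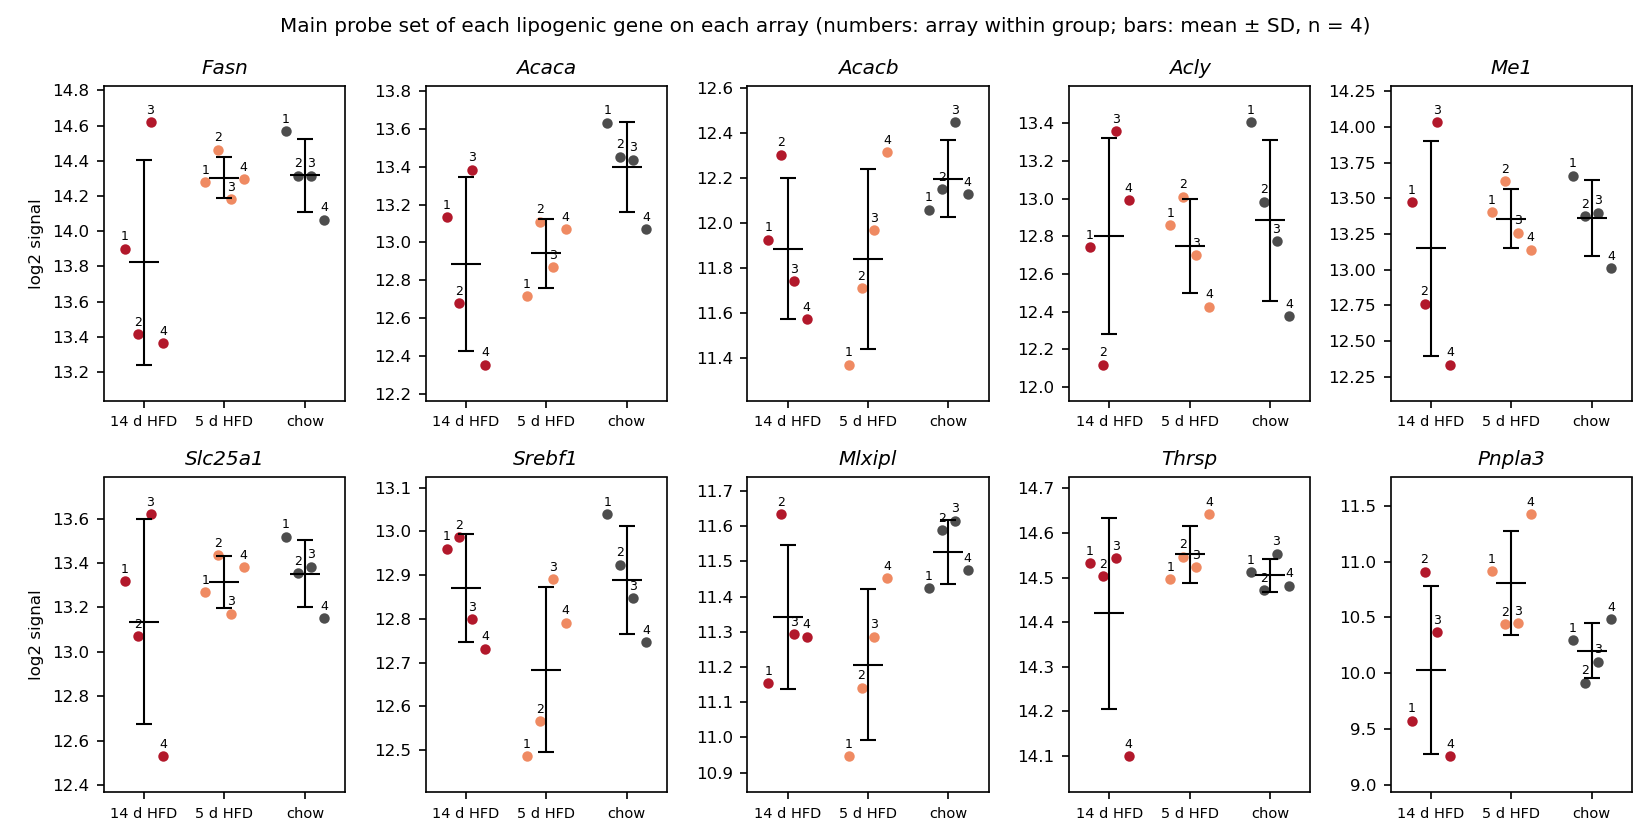
Deposited log2 signal (vertical axis) of the main probe set of each gene on each array of the 14-day HFD, 5-day HFD and chow groups; numbers name the array, and bars give mean ± SD (n = 4). The groups overlap in every panel, and 14-day array 4 is the lowest of the 12 arrays for Fasn, Acaca, Me1, Slc25a1, Thrsp and Pnpla3.

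Fasn (chromosome 11, 120805958 to 120825166, GRCm38.p6) makes palmitate and had 1 probe set. Its signal was 13.90, 13.42, 14.62 and 13.36 on 14-day arrays 1 to 4, against 14.28, 14.46, 14.18 and 14.30 on 5-day arrays and 14.57, 14.32, 14.32 and 14.07 on chow arrays. Arrays 1, 2 and 4 of the 14-day group lay under every array of the other groups, while 14-day array 3 was the highest of all 12. Fasn averaged 13.82 ± 0.58 at 14 days, 14.30 ± 0.12 at 5 days and 14.32 ± 0.20 in chow (SD, n = 4). The difference was −0.49 ± 0.23 (SE) at 14 days against chow, with a 95% interval from 0.500-fold to 1.01-fold and limma adjusted p = 0.637. Without 14-day array 3 it was −0.76, without 14-day array 4 it was −0.34, and with array weights it was −0.25. At 5 days against chow the difference was −0.012 ± 0.23, with an interval from 0.697-fold to 1.41-fold (limma adjusted p = 0.991). Between 14 and 5 days it was −0.48 ± 0.23 (limma adjusted p = 0.999).

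Acaca (chromosome 11, 84129635 to 84401651) encodes the cytosolic acetyl-CoA carboxylase that feeds Fasn. Its main probe set read 13.13, 12.68, 13.39 and 12.36 on 14-day arrays 1 to 4 and 12.72, 13.11, 12.87 and 13.07 on 5-day arrays, against 13.63, 13.45, 13.44 and 13.07 on chow arrays. All 8 HFD arrays lay under chow arrays 1 to 3, and chow array 4 was level with 5-day array 4. The means were 12.89 ± 0.46, 12.94 ± 0.18 and 13.40 ± 0.24 at 14 days, at 5 days and in chow (SD, n = 4). Acaca differed by −0.51 ± 0.20 at 14 days against chow (0.515-fold to 0.958-fold, limma adjusted p = 0.580) and by −0.46 ± 0.20 at 5 days against chow (0.535-fold to 0.994-fold, limma adjusted p = 0.489). It was the one member with an unadjusted p under 0.05 in both comparisons with chow. The 14-day mean differed from the 5-day mean by −0.054 ± 0.20 (limma adjusted p = 0.999). Without 14-day array 4 the 14-day difference was −0.33, and with array weights it was −0.22. The 5-day difference was −0.57 without chow array 4, −0.19 with the epididymis covariate and −0.20 with the 3 tissue covariates.

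The second Acaca probe set gave a larger gap. It read 9.46, 8.88, 10.02 and 8.30 at 14 days and 9.42, 9.93, 9.35 and 8.18 at 5 days, against 10.30, 9.95, 10.14 and 9.48 in chow. Fitted with every probe set on its own, it differed by −0.80 ± 0.40 at 14 days against chow (limma adjusted p = 0.664) and by −0.74 ± 0.40 at 5 days against chow (limma adjusted p = 0.578). The main minus the second probe set was 4.88 on 5-day array 4 and 4.06 on 14-day array 4, and from 3.17 to 3.80 on the other arrays. The array's control for pyruvate carboxylase (Pcx) has probe sets for the 3′ and the 5′ end of the transcript, and their difference widens where the 5′ end is lost. That difference was 2.83 on 5-day array 4, from 1.72 to 2.18 at 14 days, from 1.59 to 1.94 on the other 5-day arrays and from 1.70 to 1.91 in chow. Across the 12 arrays the Acaca and Pcx differences went together, with Pearson r = 0.98 (permutation p = 3e-05) and Spearman rho = 0.96 (permutation p = 1e-05, the smallest that these permutations can give). Without 5-day array 4 and 14-day array 2, r was 0.92. The main minus the second probe set of 3 further genes was set against the same control, and all 4 were chosen after the values were seen. Acly gave r = 0.85 and rho = 0.71, Me1 r = −0.75 and rho = −0.73, and Thrsp r = 0.30 and rho = 0.59. The permutation p of r, adjusted over the 4, was 0.00012 for Acaca, 0.0019 for Acly, 0.0095 for Me1 and 0.27 for Thrsp, and that of rho was 4e-05, 0.016, 0.016 and 0.046 in the same order. Without the same 2 arrays r was 0.67 for Acly, −0.53 for Me1 and 0.74 for Thrsp. The part of RNA quality in the Acaca group differences was not tested.

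**Figure D2:**
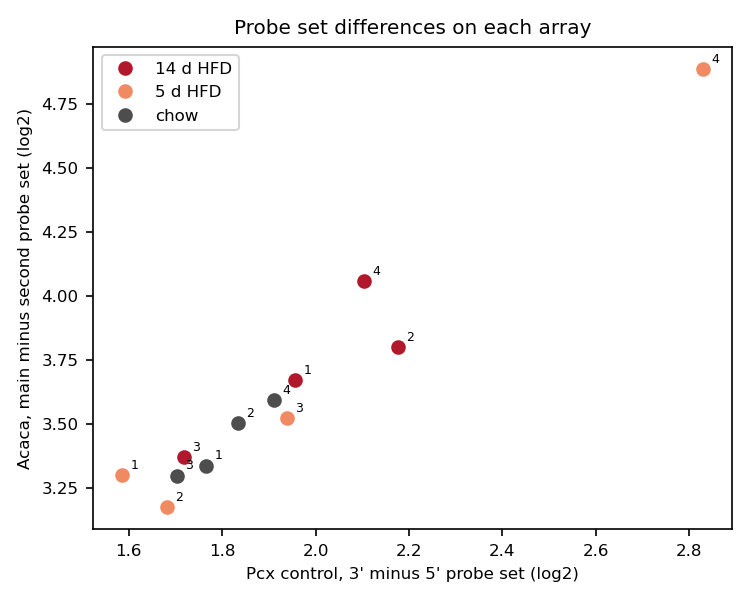
Difference between the main and the second Acaca probe set (vertical axis, log2) against the difference between the 3′ and 5′ probe sets of the Pcx control (horizontal axis, log2), 1 point per array, numbered within the 14-day HFD, 5-day HFD and chow groups. 5-day array 4 lies alone at 2.83 and 4.88.

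Acacb (chromosome 5, 114146321 to 114250761) encodes the acetyl-CoA carboxylase tied to mitochondria, whose malonyl-CoA restrains fatty acid oxidation. It read 11.92, 12.30, 11.74 and 11.57 at 14 days and 11.37, 11.71, 11.97 and 12.31 at 5 days, against 12.06, 12.15, 12.45 and 12.13 in chow. Chow arrays spanned 0.39 while the 5-day arrays spanned 0.94, and 14-day array 2 and 5-day array 4 lay inside the chow range. Acacb differed by −0.31 ± 0.20 at 14 days against chow (limma adjusted p = 0.732), by −0.36 ± 0.20 at 5 days against chow (limma adjusted p = 0.572) and by 0.045 ± 0.20 at 14 against 5 days (limma adjusted p = 0.999). Without 14-day array 4 the 14-day difference was −0.21, and with the 3 tissue covariates it was −0.11. The 5-day difference was −0.20 without 5-day array 1 and −0.51 without 5-day array 4. It was −0.13 with the epididymis covariate and −0.079 with the 3 tissue covariates. Chow array 3 had the highest Acacb signal of the 12 arrays and a skeletal muscle marker mean of 13.16. Without that array Acacb differed by −0.23 at 14 days and −0.27 at 5 days against chow. The part of muscle RNA in this was not tested. The second Acacb probe set, dim at 7.36 to 7.83, differed by −0.081 at 14 days and −0.093 at 5 days against chow.

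The genes that supply citrate carbon and NADPH varied most between arrays of the 14-day group. Slc25a1 (chromosome 16, 17925211 to 17928219) read 13.32, 13.07, 13.62 and 12.53 at 14 days, against 13.27, 13.43, 13.17 and 13.38 at 5 days and 13.52, 13.35, 13.38 and 13.15 in chow. Array 3 of the 14-day group was the highest of 12 and array 4 the lowest. Me1 (chromosome 9, 86581363 to 86695914) followed the same order at 14 days, with 13.47, 12.76, 14.03 and 12.34, against 13.40, 13.62, 13.26 and 13.14 at 5 days and 13.66, 13.38, 13.40 and 13.01 in chow. Its SD was 0.75 at 14 days, 0.21 at 5 days and 0.27 in chow (n = 4). Acly (chromosome 11, 100476352 to 100528000) read 12.74, 12.12, 13.36 and 12.99 at 14 days, against 12.86, 13.01, 12.70 and 12.43 at 5 days and 13.41, 12.98, 12.77 and 12.38 in chow. Unlike Slc25a1 and Me1 it was not low on 14-day array 4.

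At 14 days against chow Slc25a1 differed by −0.22 ± 0.19, Me1 by −0.21 ± 0.30 and Acly by −0.082 ± 0.27, with limma adjusted p of 0.806, 0.884 and 0.950. At 5 days against chow the differences were −0.038 ± 0.19, −0.006 ± 0.30 and −0.14 ± 0.27, with limma adjusted p of 0.961, 0.995 and 0.897. The 5-day interval ran from 0.734-fold to 1.29-fold for Slc25a1, from 0.627-fold to 1.58-fold for Me1 and from 0.607-fold to 1.37-fold for Acly. Between 14 and 5 days they differed by −0.18 ± 0.19, −0.20 ± 0.30 and 0.054 ± 0.27 (limma adjusted p = 0.999 for each). Against chow, leaving out 14-day array 4 gave −0.016 for Slc25a1 and 0.062 for Me1, and leaving out 14-day array 3 gave −0.38 for Slc25a1 and −0.50 for Me1. With the epididymis covariate the 14-day differences were −0.096 for Slc25a1 and −0.084 for Me1. The second Me1 probe set differed by −0.061 at 14 days and 0.036 at 5 days. The other 2 Acly probe sets above the filter differed by 0.021 and −0.19 at 14 days, and by −0.083 and −0.26 at 5 days. The remaining 3 Acly probe sets lay under the filter, between 4.28 and 7.39.

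**Figure D3:**
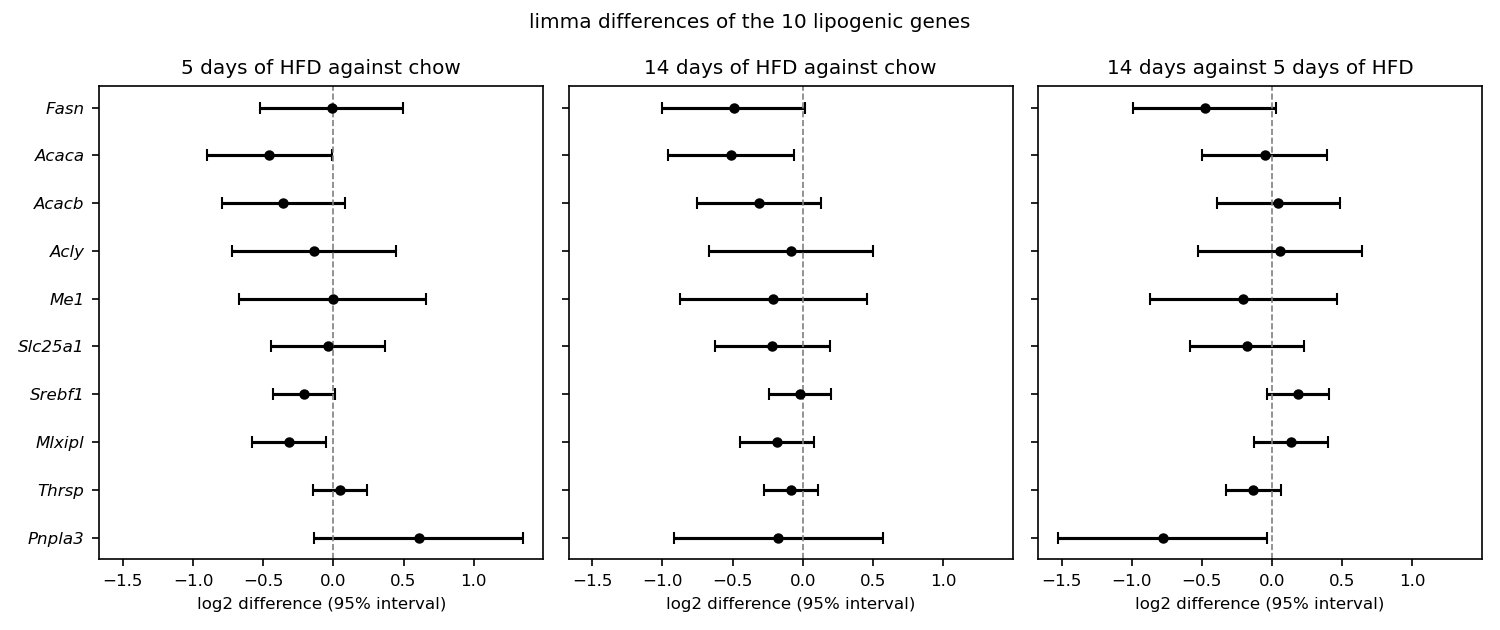
limma log2 difference (horizontal axis) with its 95% interval for each of the 10 genes at 5 days of HFD against chow, 14 days of HFD against chow and 14 against 5 days of HFD; the dashed line marks 0. Intervals lie below 0 for Acaca and Mlxipl at 5 days, Acaca at 14 days and Pnpla3 at 14 against 5 days, before any adjustment for the number of genes.

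Srebf1 (chromosome 11, 60199084 to 60224186) encodes SREBP-1, and its 1 probe set does not separate the forms of the transcript. It read 12.96, 12.99, 12.80 and 12.73 at 14 days and 12.49, 12.57, 12.89 and 12.79 at 5 days, against 13.04, 12.92, 12.85 and 12.75 in chow. 5-day arrays 1 and 2 were the lowest of all, and the other 5-day arrays lay inside the chow range. Srebf1 differed by −0.020 ± 0.10 at 14 days against chow (0.846-fold to 1.15-fold, limma adjusted p = 0.967), by −0.21 ± 0.10 at 5 days against chow (0.744-fold to 1.01-fold, limma adjusted p = 0.524) and by 0.19 ± 0.10 at 14 against 5 days (limma adjusted p = 0.999). Its 5-day difference was −0.13 with the epididymis covariate and −0.086 with the 3 tissue covariates. Mlxipl (chromosome 5, 135089890 to 135139768), the ChREBP gene, read 11.15, 11.63, 11.29 and 11.29 at 14 days and 10.95, 11.14, 11.29 and 11.45 at 5 days, against 11.42, 11.59, 11.62 and 11.47 in chow. Chow arrays were tightest, with an SD of 0.091 against 0.21 in both HFD groups. Only 5-day array 4 and 14-day array 2 reached the chow range. Mlxipl differed by −0.18 ± 0.12 at 14 days against chow (limma adjusted p = 0.732). At 5 days against chow it differed by −0.32 ± 0.12 (0.668-fold to 0.962-fold, limma adjusted p = 0.414), the smallest p of the 10 genes there, and at 14 against 5 days by 0.14 ± 0.12 (limma adjusted p = 0.999). Its 5-day difference was −0.23 without 5-day array 1, −0.40 without 5-day array 4 and −0.11 with the 3 tissue covariates. With those covariates the 14-day difference was −0.014. The difference between 14 and 5 days was 0.038 without 14-day array 2 and 0.049 without 5-day array 1.

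Thrsp and Pnpla3 are lipid genes that respond to feeding. Thrsp (chromosome 7, 97412933 to 97417550), the Spot 14 protein of lipogenic tissues, read 14.53, 14.50, 14.54 and 14.10 at 14 days and 14.50, 14.55, 14.52 and 14.64 at 5 days, against 14.51, 14.47, 14.55 and 14.48 in chow. All arrays but 14-day array 4 lay between 14.47 and 14.64, and 0.508% of all probe set values exceed 14. Thrsp differed by −0.085 ± 0.088 at 14 days against chow (limma adjusted p = 0.840), by 0.048 ± 0.088 at 5 days against chow (limma adjusted p = 0.891) and by −0.13 ± 0.088 at 14 against 5 days (limma adjusted p = 0.999). Without 14-day array 4 the difference between 14 and 5 days was −0.026 and that between 14 days and chow 0.021. With the epididymis covariate the 5-day difference was 0.20 (limma adjusted p = 0.072) and that between 14 and 5 days −0.22 (limma adjusted p = 0.116). On the arrays that this covariate leans on, Thrsp was the highest of 12 (5-day array 4) and the lowest (14-day array 4). Its second probe set was lower on all 14-day arrays (12.99 to 13.71) than on all 5-day arrays (13.74 to 13.86), with a difference of −0.30 ± 0.13 and limma adjusted p = 0.999. The third differed by 0.094 between the same groups.

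Pnpla3 (chromosome 15, 84167776 to 84189521), which encodes adiponutrin, a lipid droplet acyl hydrolase, spread most widely. It read 9.57, 10.91, 10.37 and 9.26 at 14 days and 10.91, 10.44, 10.45 and 11.43 at 5 days, against 10.30, 9.92, 10.10 and 10.48 in chow. 5-day arrays 1 and 4 lay above the chow range and 5-day arrays 2 and 3 inside it, while the 14-day arrays lay below, inside and above it. Means were 10.03 ± 0.75 at 14 days, 10.81 ± 0.47 at 5 days and 10.20 ± 0.25 in chow (SD, n = 4). Pnpla3 differed by −0.17 ± 0.34 at 14 days against chow (limma adjusted p = 0.913), by 0.61 ± 0.34 at 5 days against chow (0.909-fold to 2.55-fold, limma adjusted p = 0.571) and by −0.78 ± 0.34 at 14 against 5 days (0.347-fold to 0.975-fold, limma adjusted p = 0.999). The 5-day difference was 0.40 without 5-day array 4, 1.09 with the epididymis covariate (limma adjusted p = 0.067) and 1.57 with the 3 tissue covariates (limma adjusted p = 0.499). On the arrays that the epididymis covariate leans on, Pnpla3 was the highest of 12 (5-day array 4) and the lowest (14-day array 4). At 14 days against chow the Pnpla3 difference was 0.084 without 14-day array 4 and −0.47 without 14-day array 2. The difference between 14 and 5 days was −0.52 without 14-day array 4, −1.08 without 14-day array 2 and −0.32 without both HFD arrays numbered 4.

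The spread within groups was largest at 14 days by the median SD. The SD at 5 days was smaller than in chow for Fasn, Acaca, Acly, Me1 and Slc25a1, and larger for Acacb, Srebf1, Mlxipl, Thrsp and Pnpla3. Among the 10 genes, 7 had their largest SD at 14 days, 3 at 5 days and 0 in chow, against 59.2%, 29.6% and 11.1% of all genes. The median SD of the 10 was 0.46 at 14 days, 0.20 at 5 days and 0.19 in chow, and that of all genes 0.16, 0.12 and 0.084. With 14-day array 4 left out, 7 members had their largest SD at 14 days, as did 35.0% of all genes. Of these 7, 6 were among the 7 found with all arrays, Thrsp having dropped out and Mlxipl having entered. On that array 6 of the 10 genes were at their lowest of 12 arrays, as were 27.8% of all genes. Its macrophage marker mean was also the lowest, 10.02 against 10.85 to 11.55 on the other arrays. Summed on the linear scale, the 7 of 8 adipocyte markers with a probe set ran from 131200 to 164110 at 14 days, from 152437 to 159779 at 5 days and from 155394 to 161386 in chow, and none was under the filter. The sum of 5 of 6 epididymis markers ran from 831 to 90784, from 753 to 41710 and from 828 to 1690 in the same order. The sum of 5 of 5 smooth muscle markers ran from 7442 to 75248, from 7296 to 25387 and from 7709 to 11219. How much these tissues contribute to the differences between arrays was not tested.

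**Figure D4:**
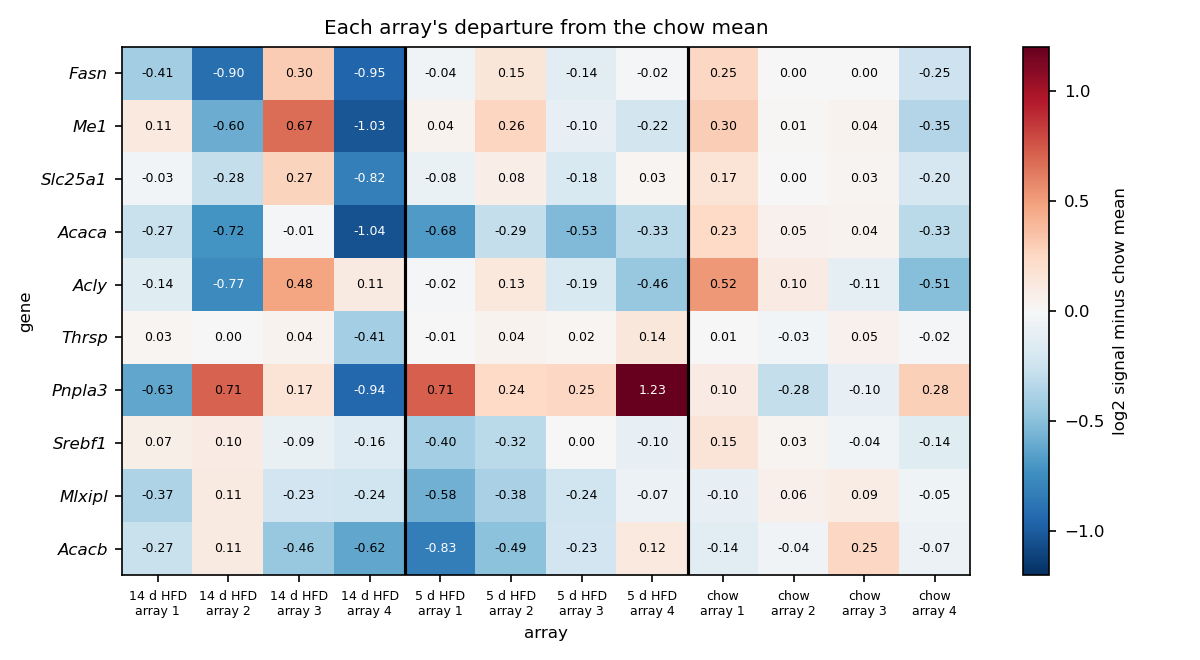
Log2 signal minus the chow mean (colour and printed number) for each gene (rows) on each array of the 14-day HFD, 5-day HFD and chow groups (columns). Fasn, Me1, Slc25a1 and Acaca are lowest together on 14-day array 4, and Acacb, Mlxipl and Srebf1 are lowest together on 5-day array 1.

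Some of the 10 genes varied together from array to array. Of 45 pairs, 7 had a Pearson r whose permutation p, adjusted over the 45, was under 0.05, and 6 of these also passed by Spearman rho. The permutations mixed all 12 arrays without regard to group. How many pairs of other genes reach such an r was not counted, so 7 of 45 is not shown to be particular to these genes. Fasn went with Slc25a1 (r = 0.88, permutation p = 3e-05, adjusted 0.00067; rho = 0.95, permutation p = 3e-05, adjusted 0.0013; 12 arrays). Fasn also went with Me1 (r = 0.88, permutation p = 0.00018, adjusted 0.0024; rho = 0.80, permutation p = 0.0027, adjusted 0.025) and with Acaca (r = 0.78, permutation p = 0.0022, adjusted 0.016; rho = 0.76, permutation p = 0.0052, adjusted 0.039). Without 14-day arrays 4 and 2, the farthest from the Fasn median, these r were 0.80, 0.68 and 0.49, so the pairing with Acaca leans on those 2 arrays. Me1 and Slc25a1 gave r = 0.93 (permutation p = 1e-05, adjusted 0.00045) and rho = 0.86 (permutation p = 0.00055, adjusted 0.0082), and r = 0.84 without 14-day arrays 4 and 3. Acaca and Slc25a1 gave r = 0.84 (permutation p = 0.00035, adjusted 0.0031) and rho = 0.80 (permutation p = 0.0023, adjusted 0.025). Acaca and Me1 passed by r alone, with r = 0.77 (permutation p = 0.0037, adjusted 0.024) and rho = 0.69 (permutation p = 0.015, adjusted 0.099). Without 14-day array 4 and chow array 1 these Acaca r were 0.71 and 0.57. With each group centred on its own mean, r was 0.89 for Fasn with Slc25a1, 0.95 with Me1 and 0.90 with Acaca.

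Acacb and Mlxipl formed the other close pair, with r = 0.88 (permutation p = 0.00021, adjusted 0.0024) and rho = 0.88 (permutation p = 0.00035, adjusted 0.0079). Without 5-day array 1 and 14-day array 4 their r was 0.86. Srebf1 gave r = 0.65 with Acacb (permutation p = 0.021, adjusted 0.096) and 0.64 with Mlxipl (permutation p = 0.026, adjusted 0.11), with rho of 0.52 (permutation p = 0.088, adjusted 0.30) and 0.51 (permutation p = 0.096, adjusted 0.30). Without the 2 farthest arrays these r were 0.37 and 0.14. Fasn showed no such relation to either regulator, with r = −0.14 for Srebf1 (permutation p = 0.67, adjusted 0.87) and −0.14 for Mlxipl (permutation p = 0.66, adjusted 0.87), and rho of 0.035 and −0.011 (permutation p = 0.92 and 0.98). The arrays share their hybridization, RNA quality and tissue mixture with all of these genes. Against the adipocyte marker mean, r was 0.88 for Thrsp, 0.84 for Slc25a1, 0.71 for Me1, 0.63 for Acaca, 0.59 for Fasn, 0.35 for Srebf1, 0.33 for Acacb and 0.047 for Mlxipl, with rho from 0.053 to 0.48. Without 14-day arrays 4 and 3 these r were 0.34, 0.17, 0.043, 0.15, −0.060, 0.53, 0.14 and −0.054 in the same order. Pnpla3 gave r = 0.50 (rho = 0.17) and Acly r = −0.011 (rho = −0.10), and without those arrays r was 0.0035 and 0.032. Against the epididymis marker mean, r was −0.67 for Acaca, −0.65 for Acacb, −0.58 for Slc25a1, −0.57 for Thrsp, −0.57 for Srebf1, −0.54 for Mlxipl, −0.36 for Me1 and −0.28 for Fasn, with rho from −0.54 to −0.26. Without 14-day array 4 and 5-day array 3 these r were −0.42, −0.65, −0.041, −0.089, −0.82, −0.64, 0.13 and 0.17 in the same order. Pnpla3 gave r = −0.22 (rho = −0.056) and Acly, on the other side of 0, r = 0.13 (rho = 0.11). With those arrays left out r was 0.20 for Pnpla3 and 0.12 for Acly. Over the 20 relations of the 10 genes to these 2 means, the lowest adjusted permutation p was 0.082 for r and 0.62 for rho. Whether the marker means account for these relations was not tested. The labels name no batch within which the relations could be repeated.

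**Figure D5:**
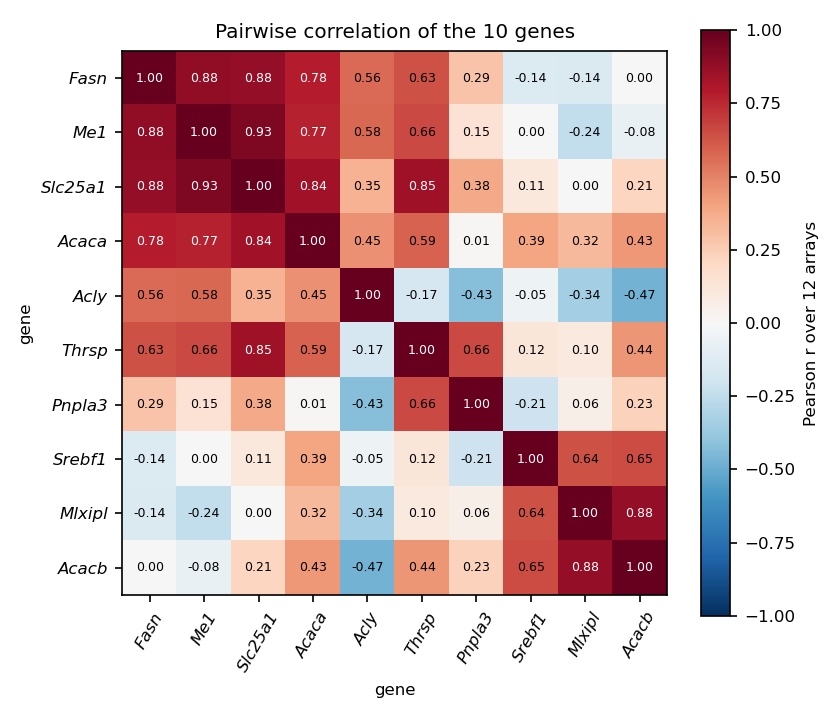
Pearson r over the 12 arrays (colour and printed number) for every pair of the 10 genes, on both axes. Fasn, Me1, Slc25a1 and Acaca form a block with r from 0.77 to 0.93, and Srebf1, Mlxipl and Acacb one with r from 0.64 to 0.88.

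Promoter windows are shown for Fasn, Slc25a1, Me1 and Acaca and for Acacb, Mlxipl and Srebf1, the blocks in the plot of correlations. RefSeq (GRCm38.p6) gives 14 windows for the 10 genes, each from 250 bases before to 50 after a gene start, and where a gene has several windows the most upstream one is printed. All printed windows but those of Slc25a1, Me1 and Mlxipl lie inside the span given above for their gene. Capitals mark CCAAT, the box that the factor NF-Y reads, CACGTG, the E-box that ChREBP and USF proteins read, and GGGCGG, the GC box of Sp1, on either strand.
Fasn, chr11:120824498-120824797, minus strand: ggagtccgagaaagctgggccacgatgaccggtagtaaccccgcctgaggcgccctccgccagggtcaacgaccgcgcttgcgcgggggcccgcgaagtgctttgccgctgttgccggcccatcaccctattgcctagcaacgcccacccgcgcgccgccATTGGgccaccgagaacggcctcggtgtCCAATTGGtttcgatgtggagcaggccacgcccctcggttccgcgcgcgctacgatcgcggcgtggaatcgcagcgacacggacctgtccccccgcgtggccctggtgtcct
Slc25a1, chr16:17928170-17928469, minus strand: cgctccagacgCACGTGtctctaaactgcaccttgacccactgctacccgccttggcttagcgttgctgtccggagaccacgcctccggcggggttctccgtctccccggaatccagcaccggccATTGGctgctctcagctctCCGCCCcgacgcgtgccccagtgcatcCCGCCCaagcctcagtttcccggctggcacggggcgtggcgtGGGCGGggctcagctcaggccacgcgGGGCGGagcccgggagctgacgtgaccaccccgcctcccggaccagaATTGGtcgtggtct
Me1, chr9:86695865-86696164, minus strand: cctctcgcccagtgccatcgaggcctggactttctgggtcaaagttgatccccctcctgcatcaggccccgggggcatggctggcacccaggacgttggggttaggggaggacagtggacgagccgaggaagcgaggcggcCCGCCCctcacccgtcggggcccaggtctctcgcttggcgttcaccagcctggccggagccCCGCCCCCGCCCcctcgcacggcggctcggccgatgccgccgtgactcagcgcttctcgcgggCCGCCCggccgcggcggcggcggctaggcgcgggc
Acaca, chr11:84195188-84195487, plus strand: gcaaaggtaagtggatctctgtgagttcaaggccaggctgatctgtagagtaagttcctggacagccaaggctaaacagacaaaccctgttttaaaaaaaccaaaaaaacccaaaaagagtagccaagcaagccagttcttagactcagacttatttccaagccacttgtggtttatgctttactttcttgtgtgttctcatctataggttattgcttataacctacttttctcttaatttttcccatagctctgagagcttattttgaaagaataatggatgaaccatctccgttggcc
Acacb, chr5:114165268-114165567, plus strand: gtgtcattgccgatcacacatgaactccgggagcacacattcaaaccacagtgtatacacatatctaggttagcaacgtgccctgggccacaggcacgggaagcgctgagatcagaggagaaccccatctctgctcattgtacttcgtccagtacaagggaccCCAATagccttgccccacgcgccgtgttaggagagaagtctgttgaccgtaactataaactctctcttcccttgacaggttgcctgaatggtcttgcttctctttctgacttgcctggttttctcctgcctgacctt
Mlxipl, chr5:135089640-135089939, plus strand: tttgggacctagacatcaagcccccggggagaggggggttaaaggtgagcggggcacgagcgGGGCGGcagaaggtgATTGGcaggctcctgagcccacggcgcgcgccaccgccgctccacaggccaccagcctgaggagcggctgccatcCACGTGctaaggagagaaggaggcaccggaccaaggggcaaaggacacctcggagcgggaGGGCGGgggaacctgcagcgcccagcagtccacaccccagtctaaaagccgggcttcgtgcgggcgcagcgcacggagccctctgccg
Srebf1, chr11:60222532-60222831, minus strand: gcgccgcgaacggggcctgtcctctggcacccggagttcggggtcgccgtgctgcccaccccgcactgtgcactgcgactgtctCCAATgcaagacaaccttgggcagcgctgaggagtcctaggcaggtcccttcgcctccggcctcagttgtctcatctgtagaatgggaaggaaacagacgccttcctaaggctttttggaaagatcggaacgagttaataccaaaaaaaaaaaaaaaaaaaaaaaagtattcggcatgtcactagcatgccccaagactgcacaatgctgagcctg

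A CCAAT box stood in the windows of 9 of the 10 genes, all but Acaca, and in 10 of the 14 windows, against 37.4% of all 32851 promoter windows. The Fasn window holds 3, of which 2 overlap on opposite strands at positions −62 and −59 from the gene start. In Me1 the box lies only in the window that is not printed. The E-box stood in Slc25a1 and Mlxipl, in 2 of the 14 windows (7.15% of all windows). The GC box stood in 6 of the 10 genes and in 7 of the 14 windows (35.7% of all windows). The Acaca window held none of the 3 motifs. No motif separated Fasn, Slc25a1, Me1 and Acaca from Acacb, Mlxipl and Srebf1. Letters in a window do not show that a factor binds there.

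Genes whose pattern over the 12 arrays was most like the mean of the 10, each scaled to unit variance, were Maob (r = 0.96), Abhd5 (0.94), Mogat1 (0.93), Hsd17b10 (0.93) and Ppp1r14b (0.92), among 13302 other genes. Most like Fasn alone were Gsta3 (0.92), Rab8a (0.88) and Pepd (0.88). The scaled mean was lowest on 14-day array 4, at −1.51, and highest on chow array 1, at 0.78. Gsta3 ranged from 11.34 on 14-day array 4 to 12.44 on 14-day array 3, the arrays at which Fasn was lowest and highest.

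A further 3 lists place the 10 genes in their pathway. None of their members was called in any comparison. At 14 days against chow 44.8% of all genes were lower (median 0.016), and at 5 days against chow 50.4% (median −0.0015). At 14 against 5 days 44.0% were lower (median 0.012). Of 15 tested genes (18 listed) of carbon and NADPH supply, 8 were higher and 7 lower at 14 days against chow (median 0.033), 12 higher and 3 lower at 5 days against chow (median 0.081), and 3 higher and 12 lower at 14 against 5 days (median −0.065). The 5-day and chow arrays were fully apart for 2 of these 15 genes, beside 11.3% of all genes. Slc25a10, the mitochondrial dicarboxylate carrier, was higher on all 5-day arrays (12.58 to 12.83) than on all chow arrays (11.83 to 12.33). It differed by 0.71 ± 0.22 at 5 days (limma adjusted p = 0.347) and by 0.48 ± 0.22 at 14 days against chow (limma adjusted p = 0.623). Idh1, a cytosolic source of NADPH, differed by 0.21 ± 0.11 at 5 days and 0.15 ± 0.11 at 14 days (limma adjusted p = 0.538 and 0.772). Between 14 and 5 days the smallest p belonged to Pcx, which makes oxaloacetate (−0.16 ± 0.14), and to Slc25a10 (−0.24 ± 0.22), with limma adjusted p = 0.999 for both.

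Of 18 tested regulators (19 listed) of SREBP, ChREBP and the liver X receptors, 7 were higher and 11 lower at 14 days against chow (median −0.016) and 6 higher and 12 lower at 5 days against chow (median −0.036). At 14 against 5 days 12 were higher and 6 lower (median 0.022). Insig1, which holds SREBP in the endoplasmic reticulum, read 10.98, 10.87, 11.32 and 10.66 at 14 days and 11.10, 10.96, 11.13 and 11.17 at 5 days, against 10.82, 10.34, 10.62 and 10.55 in chow. Every 5-day array lay above every chow array, with a difference of 0.51 ± 0.13 (limma adjusted p = 0.347), and the 14-day difference was 0.38 ± 0.13 (limma adjusted p = 0.580). Of the 18 genes, 2 lay fully above chow at 5 days and 2 fully below, beside 11.3% of all genes in either direction. Stk11, the kinase upstream of AMPK, was lower on all 5-day arrays (10.48 to 10.63) than on all chow arrays (10.66 to 10.69), by −0.12 ± 0.047 (limma adjusted p = 0.446). Mlxip, a relative of ChREBP, differed by 0.21 ± 0.13 at 14 days against chow (limma adjusted p = 0.723). Between 14 and 5 days Stk11 differed by 0.082 ± 0.047 and Mbtps2, a protease that releases SREBP, by 0.14 ± 0.10 (limma adjusted p = 0.999 for both).

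The last list holds genes that use the new fatty acids, along with Slc2a4 and Aacs, which do not. Of its 11 tested genes (12 listed), 5 were higher and 6 lower at 14 days against chow (median −0.016). At 5 days against chow 6 were higher and 5 lower (median 0.035), and at 14 against 5 days 4 higher and 7 lower (median −0.017). Scd2, a stearoyl-CoA desaturase, read 12.71, 11.87, 13.37 and 13.80 at 14 days and 13.34, 13.30, 13.42 and 12.55 at 5 days, against 12.19, 12.22, 11.83 and 12.05 in chow. The 5-day and chow arrays were fully apart for 2 of the 11 genes, beside 11.3% of all genes. For Scd2 all 5-day arrays lay above all chow arrays, and its highest signals included the 4 arrays with epididymis markers over 11. It differed by 1.08 ± 0.35 at 5 days (limma adjusted p = 0.364) and by 0.86 ± 0.35 at 14 days against chow (limma adjusted p = 0.589). The part of epididymal RNA in this was not tested. Elovl5, a fatty acid elongase, differed by −0.27 ± 0.10 at 5 days against chow (limma adjusted p = 0.403), and Aacs, an acetoacetyl-CoA synthetase, by −0.25 ± 0.12 at 14 days against chow (limma adjusted p = 0.630). Gpam, which starts glycerolipid assembly, and Dgat2, which ends it, differed by 0.18 ± 0.099 and −0.13 ± 0.14 at 14 against 5 days (limma adjusted p = 0.999 for both).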

How the data were processed

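The authors deposited 1 table of log2 signals for 45098 probe sets. The log2 scale was judged from its range (4.18 to 15.50) and array medians (8.09 to 8.14); how probes were summarised and arrays normalized is not given in the sources used here. Per the labels' protocols, RNA was copied from an oligo(dT) primer and amplified with biotin, which reads mostly 3′ ends. The number of arrays, 4 per group, limits precision.

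Names came from the platform annotation: 34945 probe sets had 1 symbol, 932 several, 9160 none and 61 were controls; 34741 matched RefSeq by Entrez ID, which changed 0 symbols. Genes whose brightest probe set averaged under percentile 40 of all probe sets were left out. limma 3.58.1 (R 4.3.3; eBayes with trend, two-sided) took all 3 groups in 1 model, with Benjamini-Hochberg adjustment over 13312 genes. The code was tested on simulated data. Correlations over arrays used 100000 permutations. Alternatives covered scaling, filter, probe set choice, variance model, array weights, tissue covariates, pairing and left-out arrays.

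The 10 genes and all lists were chosen with earlier results of these data known. The text names the 10 genes, the 2 genes of smallest p per pathway list and comparison, and the genes most like them by r. Adipoq, Ucp1, Cidea, Cox8b, Elovl3 and Otop1 come from the marker lists. The markers Plin1, Serpina1e and Crisp1 had no probe set with 1 symbol.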

Additional observations from a re-analysis of the deposited data

Results flagged for a closer look

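Within each group of 4 arrays, a value was picked out where its gap to the nearest other array took up most of the group's range. Of 105 groups looked at, 8 held such a value, and chance alone picks out about 1 in 20. On 14-day array 4 the main Thrsp probe set was low, at 14.10 against 14.50 to 14.54 on the other 14-day arrays. On the same array a dim Acly probe set was high, at 7.39 against 7.17 to 7.19, and the epididymis marker mean was high, at 13.11 against 7.21 to 7.85. The Gapdh 3′ minus 5′ difference was high on 14-day array 2, at 0.276 against 0.099 to 0.119. On 5-day array 4 it was also high, at 0.272 against 0.072 to 0.106. That array had the low epididymis marker mean, 7.11 against 11.24 to 11.90, and the high endothelium marker mean, 11.36 against 10.51 to 10.66. The skeletal muscle marker mean was high on chow array 3, at 13.16 against 7.69 to 8.02.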

How the results depend on the processing

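No member was called in any comparison under the alternatives run, except with array weights, which called 1 at 14 days against chow, 3 at 5 days against chow and 2 at 14 against 5 days; the cause was not tested. The labels do not say whether the numbers of the arrays pair them. Deviations of same-numbered arrays correlated from −0.43 to 0.41 with chow and from −0.73 to −0.33 between the HFD groups. Such values neither show nor exclude a pairing, because RNA of other tissues also varies between arrays. The replicate block called 0 members and 0 genes in each comparison. Over all genes the count of calls moved more. At 14 days against chow it was 2981 with array weights, and up to 20 with 1 array left out. At 5 days against chow it was 2015 with array weights, 213 with the 2 groups alone, 568 with the epididymis covariate, 881 without both HFD arrays numbered 4 and up to 123 with 1 array left out. At 14 against 5 days it was 2212, 38 with the epididymis covariate and 723 without those arrays. Quantile normalization and median centring moved the median of all genes by less than 0.1.

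Of 480 differences recomputed, 41 changed sign, and none of the 41 was called. The log2 differences that did were these. With arrays centred on their median: at 5 days against chow Fasn 0.0018, Me1 0.0077. With probe sets averaged per gene: at 5 days against chow Me1 0.015. With array weights: at 14 days against chow Acly 0.041, Me1 0.22, Slc25a1 0.031, Srebf1 0.050, Thrsp 0.021, at 5 days against chow Fasn 0.0081, Acly 0.019, Me1 0.078, at 14 against 5 days Acaca 0.31, Me1 0.14, Slc25a1 0.078, Thrsp 0.0067. With liver marker covariate: at 5 days against chow Thrsp −0.0019. With epididymis marker covariate: at 14 days against chow Srebf1 0.016, Pnpla3 0.041, at 5 days against chow Fasn 0.19, Me1 0.28, Slc25a1 0.23, at 14 against 5 days Acacb −0.083. With epididymis, liver and skeletal muscle covariates: at 14 days against chow Slc25a1 0.0035, Srebf1 0.028, Thrsp 0.019, Pnpla3 0.45, at 5 days against chow Fasn 0.13, Me1 0.28, Slc25a1 0.31, at 14 against 5 days Acacb −0.035. Without both arrays numbered 4 of the HFD groups: at 14 days against chow Me1 0.062, Srebf1 0.026, Thrsp 0.021, Pnpla3 0.084, at 5 days against chow Me1 0.066, at 14 against 5 days Acaca 0.17, Acly −0.12, Slc25a1 0.045, Thrsp 0.0040. With adipocyte marker covariate: at 14 days against chow Srebf1 0.0012, at 14 against 5 days Acaca 0.022. The adipocyte covariate was chosen after seeing the data. With single arrays left out, 27 of 360 changed sign, in these ranges: at 14 days against chow Acly from −0.27 to 0.15, Me1 from −0.50 to 0.062, Srebf1 from −0.068 to 0.030, Thrsp from −0.13 to 0.021, Pnpla3 from −0.47 to 0.084, at 5 days against chow Fasn from −0.096 to 0.072, Acly from −0.31 to 0.038, Me1 from −0.12 to 0.093, Slc25a1 from −0.10 to 0.017, at 14 against 5 days Acaca from −0.22 to 0.12, Acacb from −0.11 to 0.20, Acly from −0.13 to 0.28, Me1 from −0.50 to 0.068, Slc25a1 from −0.34 to 0.023.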
